A study of Schizosaccharomyces pombe with 2 samples.

Results

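The introns described here are 157 introns of fission yeast that stayed almost fully spliced when the splicing factor Prp2 was inactivated by heat during meiosis I. They were selected on a measured value: among the 1340 introns with more than 50 reads in each library, they are those in which under 10% of the reads at 34 °C were unspliced. They make up 11.7% of those 1340 introns, lie in 138 genes, and come from a full list of 5374 introns. They are called resistant introns below, which says only that they met this rule.

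The study sequenced polyA RNA of Schizosaccharomyces pombe cells that carried pat1_as2 and prp2-1. Nitrogen starvation had arrested the cells in G1, a chemical had started a synchronous meiosis, and the culture had been divided as meiosis I began. The 25 °C library came from the part left at the permissive temperature and the 34 °C library from the part held for 1 h at the restrictive one. Each temperature has 1 library, so no difference has a replicate check, and intervals cover counting error only. Both libraries carry prp2-1, and there is no library here with an intact prp2, so an effect of heat alone and the loss of Prp2 cannot be told apart. The libraries held 636989 reads over introns at 25 °C and 493659 at 34 °C. Of 15 genes listed as markers of meiosis, 13 had introns in the table and 12 had intron reads in both libraries, while mei4, rec10 and prp2 itself had no intron listed. Those reads were very few in crs1, mcp7, rec8, hop1, dmc1, meu13 and mek1, from 1 to 24 per library. In spo4, spo6, spn7, mes1 and mfr1 they ran from 564 to 33707.

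Introns are removed by the spliceosome. U1 snRNP pairs with the 5′ splice site, the branch point binding protein recognises the branch site, and Prp2, the large subunit of U2AF (U2AF65 in humans), binds the polypyrimidine tract between branch site and 3′ splice site and helps bring in U2 snRNP. Fission yeast introns are short and often several to a gene, and meiotic cells express many genes with introns. The prp2-1 allele encodes a temperature-sensitive Prp2. The unspliced share is the percentage of an intron's reads, spliced and unspliced together, that were unspliced. The sources used here do not say what an unspliced read had to cover.

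The following introns are shown because the results turn on them: some of the deep ones whose place on the genome did not depend on the direction of numbering, 3 of those with the lowest shares at 34 °C, and 2 with low-scoring 5′ splice sites. Coordinates and bases are from the ASM294v3 reference on the plus strand, 5′ to 3′. The capitals mark the first 6 bases, the branch site match where CTAAC, or the same word with G in its middle, T as its last, or both, was found in the last 60 bases (on the transcript strand; the match nearest the 3′ end is marked, and in bet1 intron 2 it overlaps a CTAAC just before it), and the last 3 bases. All lie between coding exons.
cka1 intron 3 (chrI:2153012-2153072): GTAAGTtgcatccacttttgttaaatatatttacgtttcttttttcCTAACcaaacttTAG
bet1 intron 2 (chrI:1051922-1051970): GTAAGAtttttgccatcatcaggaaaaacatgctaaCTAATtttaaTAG
spn2 intron 4 (chrI:990794-990855): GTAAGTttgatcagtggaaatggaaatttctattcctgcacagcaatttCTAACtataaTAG
spn2 intron 3 (chrI:990601-990711): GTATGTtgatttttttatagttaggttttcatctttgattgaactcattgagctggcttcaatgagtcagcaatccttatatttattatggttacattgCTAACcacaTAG
spn2 intron 2 (chrI:990414-990471): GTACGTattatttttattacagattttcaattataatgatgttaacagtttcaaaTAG
sui1 intron 1 (chrII:2105657-2105871): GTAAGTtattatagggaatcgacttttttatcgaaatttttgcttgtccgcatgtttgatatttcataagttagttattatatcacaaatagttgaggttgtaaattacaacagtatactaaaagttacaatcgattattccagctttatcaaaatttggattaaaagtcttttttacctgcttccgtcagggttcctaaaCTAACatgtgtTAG
tef5 intron 1 (chrIII:1732854-1733100): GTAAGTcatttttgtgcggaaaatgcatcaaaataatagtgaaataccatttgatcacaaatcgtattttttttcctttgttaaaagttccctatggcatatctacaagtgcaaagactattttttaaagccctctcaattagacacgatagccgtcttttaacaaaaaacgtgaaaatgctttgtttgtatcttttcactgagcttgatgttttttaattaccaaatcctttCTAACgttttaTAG
cdc37 intron 1 (chrII:1831212-1831271): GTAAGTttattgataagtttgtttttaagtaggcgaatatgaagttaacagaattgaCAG
rps3001 intron 1 (chrI:4890374-4890425): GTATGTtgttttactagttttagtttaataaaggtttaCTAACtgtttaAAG
rhp23 intron 4 (chrII:2988145-2988196): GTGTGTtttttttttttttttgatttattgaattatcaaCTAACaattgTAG
rpn3 intron 1 (chrII:712531-712576): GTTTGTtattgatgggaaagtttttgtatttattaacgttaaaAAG

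Of the introns printed, those of cka1, sui1, tef5 and cdc37 and intron 4 of spn2 begin with GTAAGT, and that of bet1 with GTAAGA. Intron 3 of spn2 and that of rps3001 begin with GTATGT, and intron 2 of spn2 with GTACGT. That of rhp23 begins with GTGTGT and that of rpn3 with GTTTGT. Introns 2 of spn2, 1 of cdc37 and 1 of rpn3 held none of these branch site words, which says only that these letters are not in the last 60 bases.

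At 25 °C the resistant introns already had few unspliced reads. Their median unspliced share was 2.0%, against 5.73% in the other 1183 introns of the table, and 78 of them (49.7%) had under 2% unspliced, against 14.3% of the others. Summed over all resistant introns, 1972 of the reads at 25 °C were unspliced beside 97169 spliced ones, a share of 1.99%. At 34 °C the sums were 3565 unspliced and 63414 spliced reads, a share of 5.32%, while the pooled share of the other introns went from 6.95% to 44.0%. The median share of the resistant introns at 34 °C was 6.17%, and the quartiles were 3.74% and 7.87%. Because the rule used the 34 °C share, these values describe the choice and are not tested.

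The median change from 25 to 34 °C was 2.82 percentage points in the resistant introns and 33.3 points in the rest. The share was not level in all of them: the 95% Newcombe interval of the change lay above 0 in 66 of the 157 and below 0 in none. In 16 of them the share at 34 °C was the lower one, against 6 of the 1183 others. The rule chose low shares at 34 °C, so this contrast too describes the choice. At 34 °C 58 were under 5% unspliced, 15 were under 2%, and 4 had no unspliced read. The exact 95% interval of the 34 °C share stayed under 10% in 77, so for the other 80 counting error alone reaches the limit. Conversely, 112 introns outside the group had an interval that reached below 10%.

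Around the limit the choice was narrow. The 4 highest members were intron 2 of mug93 (9.92%), the intron of cox9 (9.77%), intron 4 of qcr10 (9.73%) and intron 1 of smd1 (9.72%). The 4 nearest introns left out were intron 2 of ctr6 (10%), intron 2 of adf1 (10.04%), intron 3 of cct6 (10.1%) and intron 1 of clu1 (10.1%). Between 10 and 15% lay 105 further introns.

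**Figure D1:**
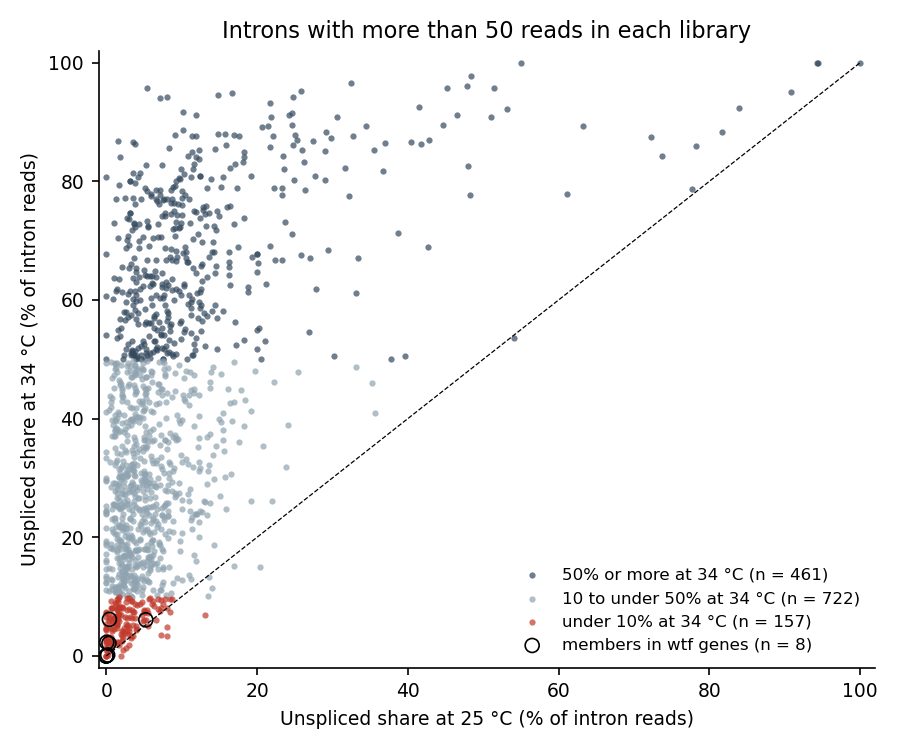
Unspliced share at 34 °C (vertical axis, percent of an intron's reads) against that at 25 °C (horizontal axis, percent) for the 1340 introns with more than 50 reads in each library, 1 point per intron. The 157 resistant introns (red) lie under 10% by the rule and mostly above the dashed line of equal shares, and the 8 in wtf genes (circled) range from 0% to 6.17%.

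The deepest resistant intron was intron 4 of wtf18, a gene of the wtf family of meiotic drivers, whose members encode spore-killing poisons and the antidotes to them. It had 19 unspliced and 9691 spliced reads at 25 °C and 5 and 3061 at 34 °C, shares of 0.196% and 0.163% (95% interval at 34 °C 0.0530% to 0.380%). The 95% interval of the change was −0.177 to 0.197 points. It had far more reads than others of the gene: 9710 at 25 °C, beside 259, 2606 and 183 in introns 1, 5 and 6. At 34 °C these numbers were 3066, beside 43, 294 and 25. Intron 4 could not be placed on the reference, and whether its reads came from other wtf copies was not tested. Intron 5 of the same gene went from 6.10% to 59.2% unspliced (Fisher's exact test, adjusted p = 8.39e-103 with Benjamini-Hochberg adjustment over the 2508 introns with at least 20 reads in each library).

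Intron 3 of mpf1, which encodes a meiotic RNA-binding protein of the PUF family, was next, with 143 unspliced and 9197 spliced reads at 25 °C and 117 and 1552 at 34 °C, or 1.53% and 7.01%. Intron 3 of cka1, the catalytic subunit of casein kinase 2, had 137 and 6220 reads at 25 °C and 39 and 1510 at 34 °C, or 2.16% and 2.52%, with a change of 0.363 points (95% interval −0.412 to 1.33). The 3 other introns of cka1 lay far higher at 34 °C, at 31.6%, 35.0% and 26.1% for introns 1, 2 and 4, from 3.36%, 1.20% and 1.75% (adjusted p = 1.34e-34, 9.64e-30 and 3.00e-64, Fisher's exact test). The gene thus held both kinds of intron, and intron 4, which rose, begins with the same GTAAGT as intron 3.

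Both introns of bet1, a SNARE protein of vesicle transport between endoplasmic reticulum and Golgi, were resistant. Intron 1 went from 3.47% of 2308 reads to 7.77% of 952, and intron 2 from 3.90% of 4818 reads to 4.38% of 1756. The interval of the change of intron 2 included 0 (−0.559 to 1.66 points).

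Several single-intron genes of translation were members. The intron of rpl14, a protein of the large ribosomal subunit (chrI:2795046-2795289), went from 2.10% of 3292 reads to 3.39% of 4804. The intron of sui1, the initiation factor eIF1 that takes part in start codon choice, went from 0.313% of 2878 reads to 2.32% of 2970. The intron of tef5, a subunit of the exchange factor for elongation factor 1, had 2 unspliced among 1146 reads in the cool library and 9 among 1218 in the warm one, so 0.739% (0.338% to 1.40%) at 34 °C. The intron of rps3001, a small-subunit ribosomal protein, had 1 of 443 and 15 of 904, or 0.226% and 1.66%.

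The remaining deep members had varied functions. The intron of tal1, the transaldolase of the pentose phosphate pathway, lies before the start codon (chrIII:773411-773487) and went from 0.582% of 5325 reads to 3.26% of 2053. Intron 2 of grx1, a glutaredoxin, went from 1.66% of 2343 to 8.19% of 2747, while its introns 1 and 3 reached 25.7% and 32.2%. Intron 6 of mug137, a BAR domain protein whose gene is upregulated in meiosis, went from 1.47% of 3540 to 9.54% of 1069, and its introns 1 to 5 lay between 21.4% and 42.9% at 34 °C. Intron 1 of yop1, a membrane protein that shapes the endoplasmic reticulum, went from 3.07% of 2998 to 4.17% of 1030, and its intron 2 to 16.4%.

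Besides wtf18 intron 4, tef5 and rps3001, the lowest shares at 34 °C among members with at least 200 reads there were those of cdc37 intron 1 and of nnf1. Cdc37 is a co-chaperone that brings kinases to Hsp90, and its intron 1 had 5 unspliced among 229 reads at 25 °C and 2 among 203 at 34 °C, or 2.18% and 0.985%. Introns 2 and 3 of cdc37 reached 11.6% and 25.2%. Nnf1 is a kinetochore protein, and its intron had 1 of 292 and 5 of 479, or 0.342% and 1.04%. The gap annotated there is under 30 bases, so this intron could not be placed on the reference.

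The 5 members with the largest fall in share were intron 3 of lsm5, intron 2 of sec21, intron 3 of pup2, intron 4 of pdc2 and intron 5 of rsd1. Lsm5, of the ring of proteins on U6 snRNA, had 9 unspliced of 69 reads at 25 °C and 5 of 72 at 34 °C, or 13.0% and 6.94%. The interval of the change included 0 (−16.8 to 4.16 points), as it did for the other 4, so no fall exceeded counting error. The 5 with the largest rise were intron 1 of rpn3, a proteasome subunit (0.625% to 9.23%), intron 2 of mug93 (1.75% to 9.92%), intron 6 of mug137, the intron of rps1901, a ribosomal protein (1.55% to 9.58%), and the intron of nda2, an alpha-tubulin (1.15% to 8.85%). These introns met the rule although their share rose several-fold.

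The other introns of the same genes were mostly not resistant. Of the 138 genes, 39 had 1 intron in the full table and 99 had more. In 80 genes at least 2 introns had over 50 reads: all of those introns were resistant in 4 genes, and resistant introns stood beside others in 76. With the deepest resistant intron of each gene set aside, 19 of the 146 others with over 50 reads were resistant, or 13.0%. Over the whole table it was 11.7%. The genes were chosen for a resistant intron and 1 was then taken from each, so these percentages are not like measures. No conclusion on resistance within genes is drawn from them. The median share of these others at 34 °C was 27.6%, against 36.4% over the table. Of these others, 32 (21.9%) were at 50% or more, against 34.4% of the table. Non-members of these genes with at least 20 reads were called higher at 34 °C in 149 of 175 cases (85.1%; 150 at an unadjusted p under 0.05), and over all tested introns outside the group 85.5% were called. None of the 2351 tested introns outside the group was called lower at 34 °C, and none was lower at an unadjusted p under 0.05 (Fisher's exact test).

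Introns of these genes that were too shallow for the rule stood nearer to the resistant ones. Among introns with at least 20 reads that were not in the deeper table, 48 belonged to a gene with a resistant intron, and 12 of them (25.0%) had under 10% unspliced at 34 °C. Over all 1168 introns of that depth the percentage was 7.96%, and among the 1120 of genes without a resistant intron it was 7.23%. The median share at 34 °C was 19.3% in the 48 and 47.1% in the 1120. Of the 48, 31 (64.6%) were called higher at 34 °C, against 76.7% of all 1168. These introns share transcripts with the members, their shares rest on few reads, and no test of the difference was made.

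Genes with several resistant introns numbered 13, with 32 resistant introns among them. In spn2, a septin of the ring that guides spore membrane formation, introns 2, 3 and 4 had 9.61% of 458, 3.92% of 1021 and 4.26% of 1033 reads unspliced at 34 °C, from 6.89%, 2.36% and 2.15%. Intron 1 went from 1.68% to 31.5% (adjusted p = 1.47e-61, Fisher's exact test). Intron 1 was thus the highest of the 4 at 34 °C though not at 25 °C.

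In srp2, an SR-type RNA-binding protein, 4 of 9 introns were resistant. Introns 3, 5, 6 and 7 had 8.02%, 7.08%, 5.91% and 2.15% unspliced at 34 °C, from 8.07%, 0.185%, 0.363% and 0%. The other 5 lay between 11.1% and 36.4%, and all 5 were called higher, with adjusted p from 9.29e-06 for intron 1 to 0.0468 for intron 2 (Fisher's exact test). Here the 2 kinds formed less of a gap than in spn2.

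The cytochrome c oxidase subunit gene cox12 had 3 resistant introns, with 5.53%, 3.12% and 2.51% at 34 °C, and its intron 4, at 11.2% from 7.30%, was not called (adjusted p = 0.0922, Fisher's exact test). The SNARE gene vti1 had resistant introns 1, 3 and 4 (8.84%, 8.00% and 8.10%), and introns 2 and 5 at 15.2% and 46.2%. SPBC3E7.07c, of uncharacterised function, had introns 3, 4 and 5 at 2.30%, 4.50% and 9.30%, and introns 1 and 2 at 27.4% and 19.8%. The other 8 genes had a pair each: bet1, cpc2 (the RACK1 protein of the ribosome), did2, lsm5, qcr6, rpt1, smd1 and vma3.

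**Figure D2:**
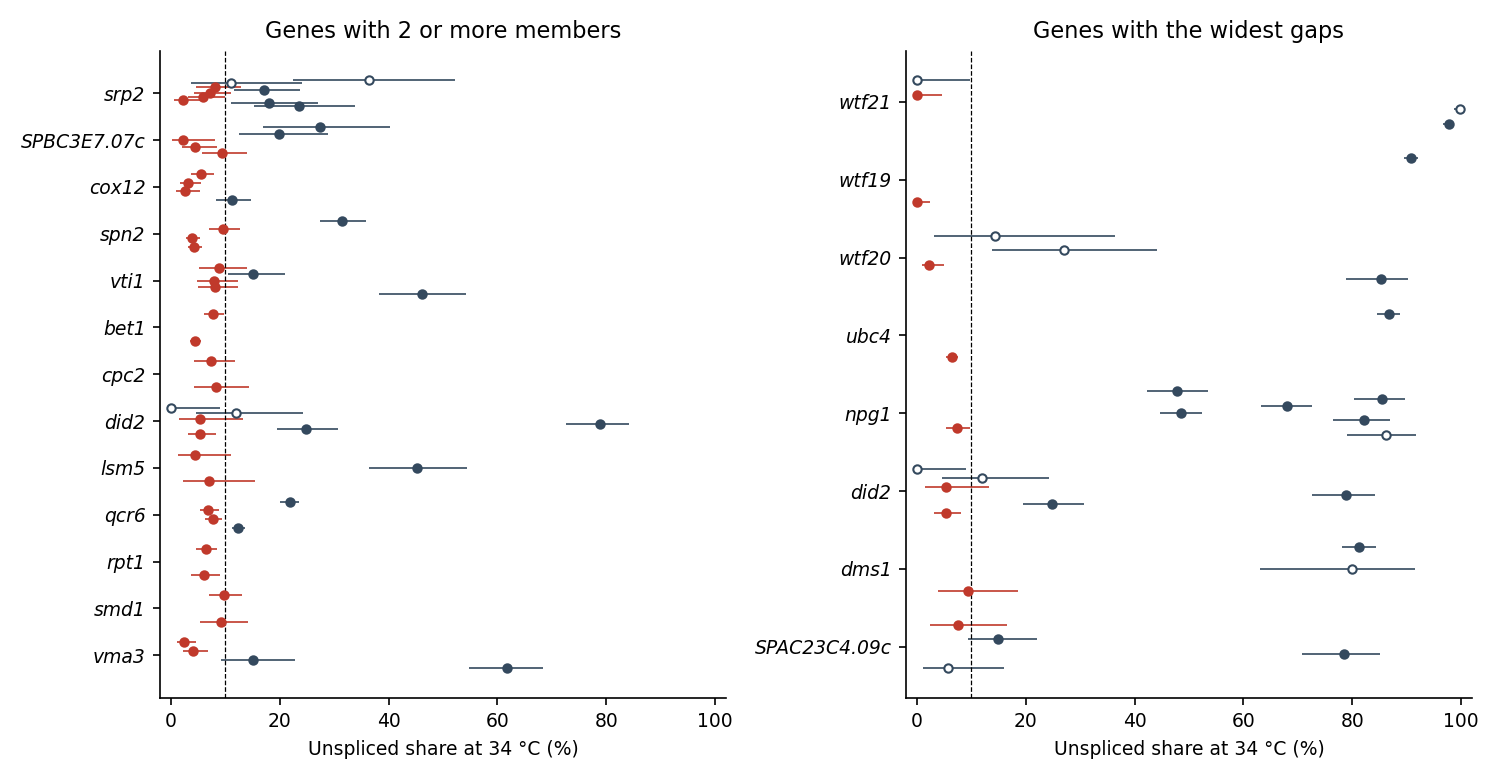
Unspliced share at 34 °C (horizontal axis, percent) of every intron with at least 20 reads in each library in the 13 genes with several resistant introns (left) and in the 8 genes with the widest gap between introns (right); introns of a gene run downwards by number, and bars are exact 95% intervals. Red points are resistant introns, dark points are others, open points did not have over 50 reads in both libraries, and the dashed line is the 10% limit.

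The widest gaps within a gene are shown by sequence where the number of the intron leaves no doubt about its place. For did2 and wtf20 the resistant intron comes first. Of ubc4 only the non-resistant intron 1 is printed, because intron 2 is long. The resistant intron 5 of wtf19 is followed by its near-identical copies in wtf21 and wtf23, which were not resistant. The capitals are as above.
ubc4 intron 1 (chrII:715453-715531): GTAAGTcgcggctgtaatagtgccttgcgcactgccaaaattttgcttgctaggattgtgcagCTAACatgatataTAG
did2 intron 6 (chrII:3753142-3753193): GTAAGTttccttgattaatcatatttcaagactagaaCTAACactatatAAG
did2 intron 4 (chrII:3752904-3752945): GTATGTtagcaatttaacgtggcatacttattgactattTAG
wtf20 intron 3 (chrIII:2021133-2021172): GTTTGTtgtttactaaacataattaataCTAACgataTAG
wtf20 intron 4 (chrIII:2021227-2021280): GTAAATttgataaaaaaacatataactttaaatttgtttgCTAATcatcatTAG
wtf19 intron 5 (chrIII:2019156-2019205): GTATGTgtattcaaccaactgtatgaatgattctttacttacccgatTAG
wtf21 intron 5 (chrIII:2065628-2065677): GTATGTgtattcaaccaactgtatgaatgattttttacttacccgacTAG
wtf23 intron 5 (chrIII:2147102-2147151): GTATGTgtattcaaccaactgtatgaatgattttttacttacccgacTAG

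The gap of ubc4, a ubiquitin-conjugating enzyme, was 80.4 points. Intron 2 (371 bases, chrII:715610-715980) had 15 unspliced and 1379 spliced reads at 25 °C and 124 and 1806 at 34 °C, or 1.08% and 6.42%. Intron 1 had 5 and 310 at 25 °C and 910 and 138 at 34 °C, or 1.59% and 86.8% (adjusted p = 1.52e-185, Fisher's exact test). The 2 introns were alike in share at 25 °C but not in depth, with 315 reads there in intron 1 and 1394 in intron 2. Intron 1, which begins with GTAAGT, was the one left mostly unspliced at 34 °C.

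In did2, an ESCRT-III subunit, intron 6 went from 3.59% to 5.26% and intron 4 from 13.3% to 78.8% (adjusted p = 1.07e-19, Fisher's exact test). In npg1, annotated as a GTPase regulator, intron 6 went from 3.64% to 7.39% and the other 6 introns lay between 47.8% and 86.3% at 34 °C. In dms1, intron 3 had 9.46% of 74 reads and intron 1 81.3% of 627. In SPAC23C4.09c, annotated as associated with the chaperonin, intron 1 had 7.46% of 67 reads and intron 3 78.6% of 140. Minus-strand genes such as these last 3 are numbered from the left of the chromosome in the deposited table, as far as the data show, so a low number there is the end of the gene.

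The wtf genes gave 8 resistant introns of 29 (27.6%), 1 in each of 8 genes, although 14 of the 29 (48.3%) had at least 50% unspliced at 34 °C and the family median was 49.4%. Intron 2 of wtf4, intron 2 of wtf21 and intron 5 of wtf19 had no unspliced read in either library, over 989, 439 and 370 reads at 25 °C and 79, 79 and 155 at 34 °C. Upper exact 95% bounds at 34 °C were 4.56% for wtf4 and wtf21 and 2.35% for wtf19. In the same genes, intron 2 of wtf19 had 21.9% and 90.8%, intron 4 of wtf4 8.22% and 48.5%, and intron 5 of wtf21 48.3% and 97.7%. Intron 3 of wtf20 had 1 unspliced among 1363 reads at 25 °C and 6 among 262 at 34 °C (2.29%), and its intron 4 had 12.4% and 85.3%. Of 51 wtf introns with at least 20 reads, 8 had no unspliced read at 34 °C, among 19 over all 2508 tested introns.

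The wtf genes are related copies, some stretches of which are near-identical. How reads that match several copies were assigned is not given in the sources used here, so the values of such stretches are uncertain. Intron 5 of wtf21 and intron 5 of wtf23 differ at 0 of 50 bases, as printed above, and yet had 97.7% and 14.7% unspliced at 34 °C. Intron 5 of wtf19 differs from each of them at 2 bases and had 0%. Of the 148 resistant introns that could be placed on the reference, 1 had a sequence that occurs in another placed intron.

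By function, the share of resistant introns differed between gene groups, which are read here against 11.7% in the table as a whole and without a test. The groups were drawn up with earlier results of these data known. Genes of the spliceosome and splicing factors had the highest share, 14 of 34 introns (41.2%), with a group median of 17.5% unspliced at 34 °C against 36.4% over the table. These 14 lie in srp2 (4), smd1 (both introns), lsm5 (2), smg1, rsd1 and ini1, and also in srp14, srp21 and spp27, which the list took by their prefix. Srp14 and Srp21 belong to the signal recognition particle and Spp27 to an RNA polymerase I factor, and without such genes 11 of 25 (44.0%) were resistant, from 6 genes. With introns down to 20 reads, 24.6% of the list had under 10% unspliced, against 9.97% of all.

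Translation factors had 4 resistant introns of 13 (30.8%): sui1, tef5 and intron 2 of both eIF4E genes, tif45 (7.44%) and tif452 (8.82%). Heat shock proteins and chaperones had 4 of 12 (33.3%): cdc37 intron 1, the cyclophilin cyp4 (1.36% to 5.28%), and the chaperonin subunits cct1 intron 2 (0% to 3.37%) and cct7 intron 2 (1.23% to 6.63%). Respiration and ATP synthase had 10 of 50 (20%), which include 3 in cox12, 2 in qcr6 and the intron of atp3, the F1 gamma subunit (2.35% to 4.71%). Deeper introns were more often resistant, from 8.51% of those with at most 100 reads in the shallower library to 22.5% of those with more than 500. How far depth accounts for the order of the groups was not tested.

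Cytosolic ribosomal proteins had 8 of 51 (15.7%) and proteasome and ubiquitin genes 9 of 61 (14.8%), near the table as a whole. The resistant proteasome introns included both of rpt1, an ATPase of the regulatory particle (6.36% and 6.03% at 34 °C), the intron of rpt2 (2.33%) and intron 3 of pup2, a core subunit (3.57%). Vesicle transport and small GTPases had 10 of 92 (10.9%), the cytoskeleton 3 of 31 (9.68%), where the deepest was fim1 intron 1 (9.56%), and the vacuolar ATPase 2 of 26 (7.69%), both in vma3 (2.37% and 4.13%). The list of meiotic and spore genes had 3 of 73 (4.11%), mug93, mug137 and mug64, and 46.6% of that group's introns were at 50% or more. That list left out spn2 and mpf1, which are annotated as meiotic and hold resistant introns, and the wtf genes were counted apart. Its low percentage therefore does not hold for meiotic genes in general. Outside these groups 82 of 868 introns (9.45%) were resistant. Among them were intron 1 of nse2, the SUMO ligase of the Smc5-6 complex (0.860% to 1.93%), and intron 1 of hat1, a histone acetyltransferase (0% to 1.34%).

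**Figure D3:**
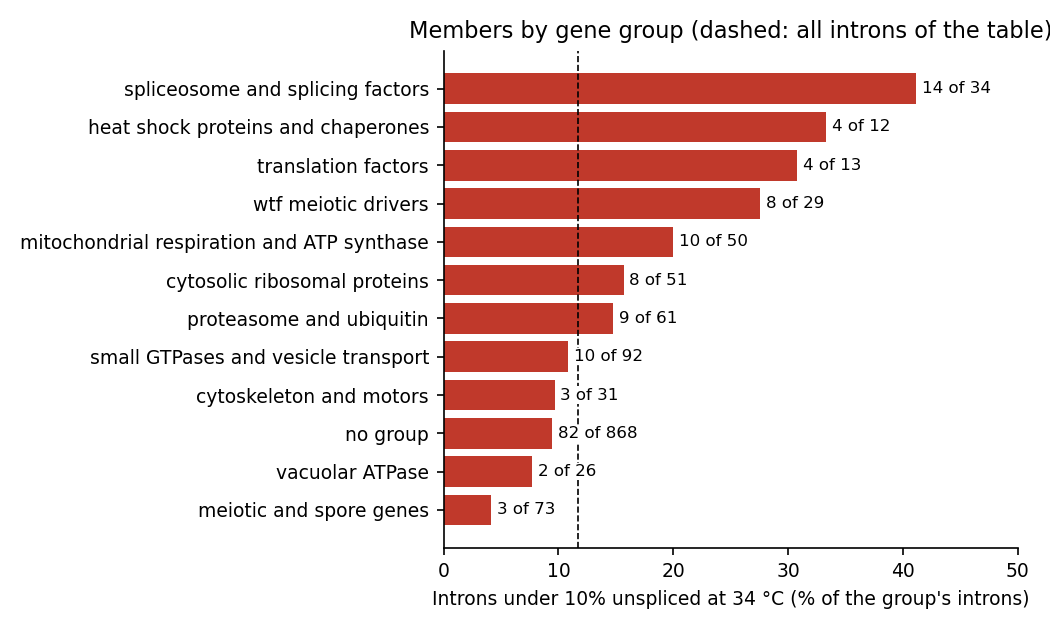
Resistant introns as a percentage of the introns with more than 50 reads in each gene group (horizontal axis), with the counts printed beside the bars. The dashed line is the 11.7% of the whole table, and the splicing list stands highest at 41.2% and the meiotic list lowest at 4.11%. The meiotic list leaves out the wtf genes, spn2 and mpf1.

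Intron number and place in the gene set the resistant introns apart little. Of 148 that could be placed on the reference, 38 were the only intron of their gene, 38 the first, 35 internal and 37 the last. As shares of all introns in those places, these were 12.6%, 11.3%, 11.3% and 11.1%. Introns before the start codon were resistant in 7 of 24 cases (29.2%): tal1, mpg1, css1, gpd3, mdh1, scs2 and ura6. Introns between coding exons were resistant in 141 of 1252 (11.3%). The longest members, gpd3 (glyceraldehyde 3-phosphate dehydrogenase, 543 bases, 6.17% at 34 °C) and mdh1 (malate dehydrogenase, 423 bases, 5.15%), were among the former. An exon of another gene overlapped 60.8% of the placed resistant introns and 56.7% of the rest, and whether unspliced reads there came from the other gene was not tested.

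Sequences were compared over the 98 resistant introns and 685 others whose place on the reference did not depend on the direction of numbering. The median length was 67 bases in the resistant introns, 62 in the rest and 55 in introns at 50% or more. The difference lay in the longer introns, as the upper quartiles were 156, 104 and 78 bases. The rest without those at 50% or more, called middle introns below, had a median of 66 and an upper quartile of 118. Among introns of 200 bases or more, 15 of 82 (18.3%) were resistant and 18.3% were at 50% or more, and among those under 50 bases 10.7% were resistant and 45.3% at 50% or more. The distance from the 5′ end to the branch site A was taken where a match was found. Its medians were 80 bases in the resistant introns, 52 in the rest, 61 in the middle introns and 44 in the high ones. Over all placed introns, numbered from the left of the chromosome, the medians were 59 in the resistant introns and 49 in the rest. Numbered along the transcript they were 61 and 49, and with introns down to 20 reads 63 and 49. The difference was thus smaller in these larger sets. The exon before the intron had a median of 125 bases in the resistant introns. It was 158 in the rest, 150 in the middle introns and 182 in the high ones.

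**Figure D4:**
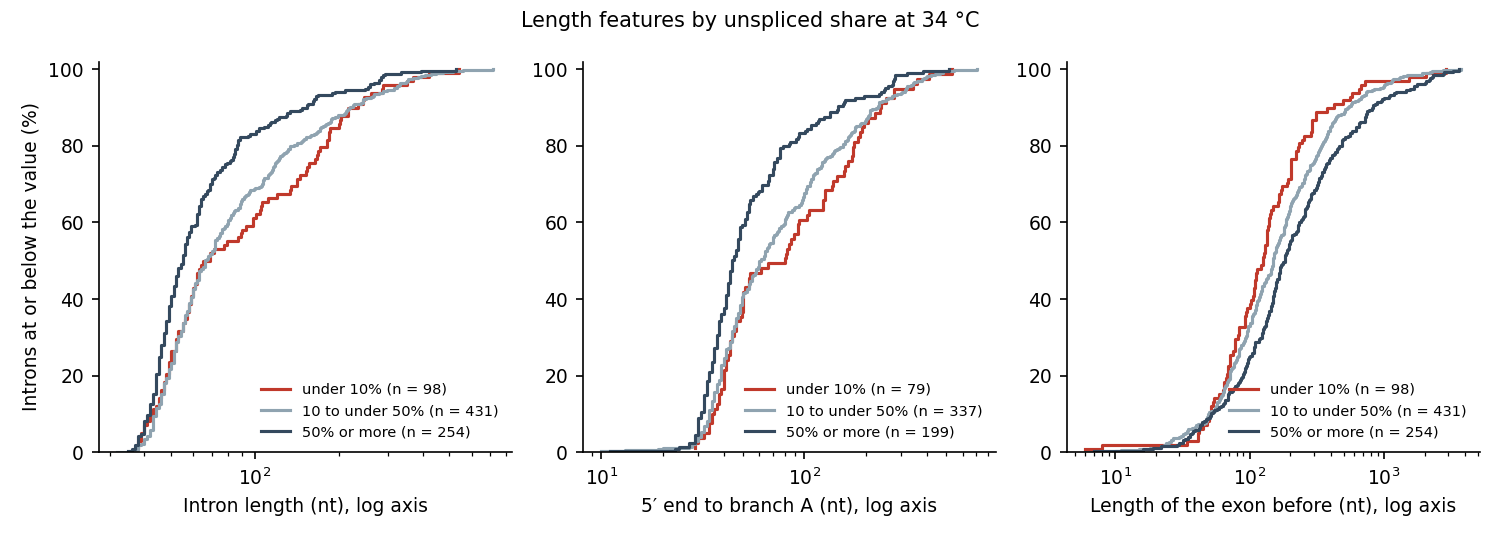
Cumulative percentage of introns (vertical axis) by intron length, by distance from the 5′ end to the branch site A and by length of the exon before (horizontal log axes, bases), in 3 classes of unspliced share at 34 °C. The curves of resistant introns (red) and of introns from 10 to 50% run together for short introns and part above about the median of 67 bases, and introns at 50% or more (dark) are shorter with longer exons before them.

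The 5′ splice site GTAAGT opened 41 of the 98 resistant introns (41.8%), 31.2% of the rest and 20.9% of the introns at 50% or more. Position 4 was A in 60.2%, 48.9% and 40.6%, and position 6 was T in 78.6%, 69.3% and 60.2%. In the middle introns GTAAGT opened 37.4%, position 4 was A in 53.8% and position 6 was T in 74.7%. These values lay between those of the resistant introns and those of the rest. Part of each contrast with the rest thus came from the introns at 50% or more. Where no exon of another gene overlapped, GTAAGT opened 28.9% of the resistant introns and 27.2% of the rest, so the difference from the rest was not seen there. As a rate, 16.1% of introns with GTAAGT were resistant, 14.04% of those with GTATGT, 19.2% of those with GTAAGA and 6.12% of those with GTATGA. With both GTAAGT and at least 100 bases, 18 of 94 (19.1%) were resistant, and with neither, 37 of 406 (9.11%). Most introns with both features were therefore not resistant. The lowest-scoring 5′ sites among the resistant introns were those of wtf12 intron 3, which begins with GTTCGA and had 6.09% unspliced at 34 °C, of rhp23 intron 4, with 8.74%, and of the intron of SPBC21B10.08c, which begins with GTGAGT and had 3.32%.

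Near the 3′ end the classes differed less in what was measured. The distance from the branch site A to the 3′ end had a median of 11 bases in all 3 classes. Pyrimidines made up a median of 57.1% of the 14 bases that end 3 bases before the exon, in all 3 classes, and T made up 35.7% in the resistant introns and 42.9% in both others. With the branch site A so near, these 14 bases often include the branch word. They therefore do not measure the tract between branch site and 3′ splice site, where U2AF binds, by itself. The last 3 bases were TAG in 73.5% of the resistant introns and 74.0% of the rest. The branch word CTAAC stood in 51.02% and 46.4%, and no match was found in 19.4% and 21.8%. A + T content had medians of 72.0% in the resistant introns, 70.4% in the rest and 69.3% in the high ones.

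Read number at both temperatures is the last property. The resistant introns had a median of 227 reads at 25 °C and 200 at 34 °C, against 144 and 139 in the rest, and held 15.6% and 13.6% of all intron reads. After scaling by the library totals, the median log2 ratio of all reads at 34 over 25 °C was 0.44 in the resistant introns and 0.34 in the rest. For spliced reads alone it was 0.39, against −0.51 in the rest and −1.19 in introns at 50% or more. The classes were set by the spliced and unspliced reads at 34 °C, so with alike ratios of all reads this order of the spliced reads follows from the choice and is no separate result. Spliced reads were lower at 34 °C in 50 of the 157 (31.8%) and in 67.5% of the rest. The sign of the members' medians depends on the scaling: with no scaling they were 0.08 and 0.03, and with scaling by the median ratio −0.02 and −0.07, while the rest stayed lower in spliced reads under each, at −0.87 and −0.97.

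Of the 12 members with most reads, 8 had a ratio below 0 and 4 above it, beside 45 of the 157 (28.7%) below 0. On the log2 scale of all reads, scaled by totals, wtf18 intron 4 was at −1.30, mpf1 intron 3 at −2.12, cka1 intron 3 at −1.67 and bet1 intron 2 at −1.09. The intron of tal1 was at −1.01, mug137 intron 6 at −1.36, yop1 intron 1 at −1.17 and spn2 intron 4 at −0.83. The 4 above 0 were rpl14 at 0.91, ubc4 intron 2 at 0.84, grx1 intron 2 at 0.60 and sui1 at 0.41. The unspliced shares of cka1 intron 3, bet1 intron 2 and wtf18 intron 4 were thus nearly level while reads over these introns were fewer at 34 °C. The steadiness of a share does not say that the transcript level was steady.

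**Figure D5:**
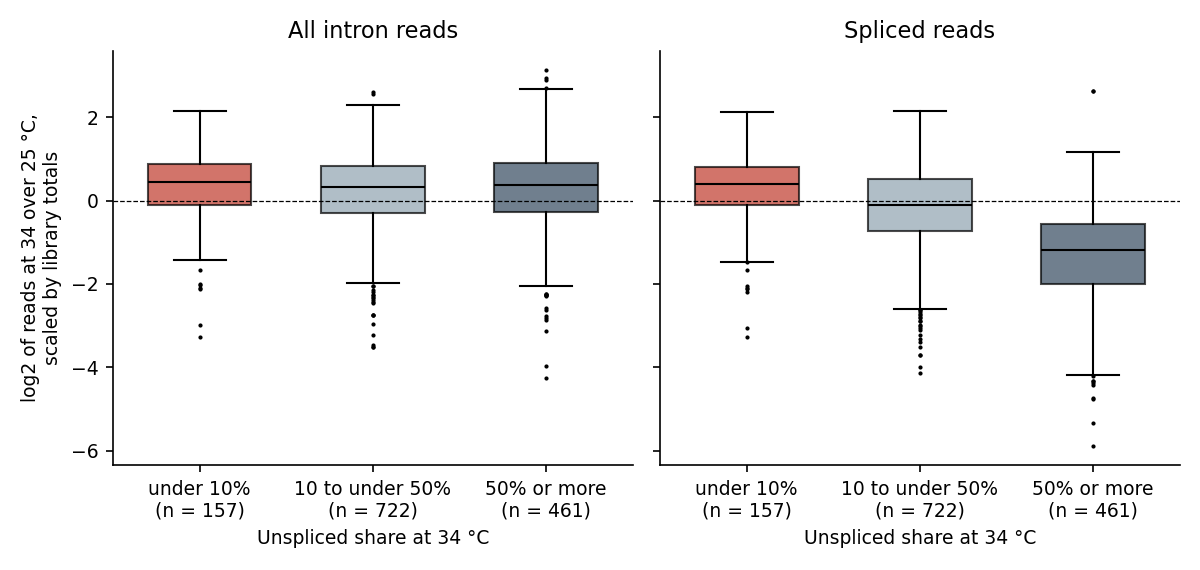
log2 ratio of reads at 34 over 25 °C, scaled by library totals (vertical axis), for all reads (left) and spliced reads (right) of introns in 3 classes of unspliced share at 34 °C; boxes are quartiles with the median line, whiskers reach 1.5 quartile ranges and dots lie beyond. Medians of all reads are alike, and the median of spliced reads is 0.39 in resistant introns and −1.19 in introns at 50% or more, an order that follows from how the classes were chosen.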

How the data were processed

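PolyA RNA of 1 library per temperature was compared, and each library was assigned to its temperature from its title. The authors deposited, per the file headers, whole counts per intron of reads that were spliced and of reads that were not, unscaled, and the ratio of spliced to unspliced reads, which was not used further because it carries no depth. The submitters' processing notes name TopHat and SAMtools without versions. The build, the annotation and the use of strand are not given in sources used here.

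Shares have exact Clopper-Pearson 95% intervals and their changes Newcombe intervals, for counting error only. Introns with at least 20 reads in each library were compared with Fisher's exact test (two-sided), adjusted by Benjamini-Hochberg across 2508 introns, at a threshold of 0.05. This compares 2 libraries. All 2508 entered the adjustment, and calls are reported only for introns outside the group. Before use, the test was checked on simulated data. Read ratios had a pseudocount of 1.

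Introns were placed on ASM294v3 (NCBI annotation) by number, where the table and exactly 1 annotated transcript had the same number of introns, and annotated gaps under 30 bases were left out. This placed 5048 of 5374 introns, and 148 of 157 resistant ones. Numbering from the left of the chromosome on both strands was inferred: for genes on the minus strand, the within-gene rank correlation of 5′ site score and change was −0.22 with that numbering and 0.05 along the transcript, beside −0.18 in plus-strand genes (825 and 795 introns, a description). The 5′ site score sums, over bases 3 to 6, the log2 of each base's frequency over even use. Sequences were compared in single-intron and plus-strand genes only, except where all placed introns are named.

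Introns were named by these rules: the 12 deepest, the 5 lowest at 34 °C with at least 200 reads, the 8 widest gaps within a gene, the deepest of each gene group, the 4 on each side of the limit, the 5 genes with most members, the 5 largest falls and rises, and the longest and lowest-scoring. A few more are named as examples of a group or of introns in the same gene, chosen after their values were seen. The members, gene groups and lists were chosen with earlier results of these data known. Python 3.11.15, pandas 2.3.3, NumPy 2.4.6 and SciPy 1.17.1 were used.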

Additional observations from a re-analysis of the deposited data

How the results depend on the processing

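No paired analysis was possible because each temperature has 1 library. The number of resistant introns followed the rule: 58 at a limit of 5%, 262 at 15%, 104 with more than 100 reads, 250 with at least 20, 77 with the upper bound under 10%, 58 with no exon of another gene and 101 with 1 intron per gene. The members' median share at 25 °C was 1.06% at the 5% limit and 1.47% with the upper bound, and their median change was 1.28 points at 5%, 5.001 at 15% and 1.89 with the upper bound. Other introns that were resistant too made up 6.15% at the 5% limit, beside 4.33% of that table, again not like measures. The median share of the other introns was 32.1% at 15% and 23.3% with no overlapping exon. GTAAGT opened 28.9% with no overlapping exon. Introns before the start codon, 24 in the main table, were resistant in 12.5% at the 5% limit, against 4.33% of that table. With no overlapping exon it was 62.5%, against 10.6%, but that rests on only part of those 24. The splicing list had 14.7% at 5% (4.33% of the table), 24.6% with at least 20 reads (9.97%) and 14.7% with the upper bound (5.75%). Ribosomal proteins had 5.88% at 5%, against 4.33%. The list of meiotic and spore genes had 0% at 5%, with the upper bound and with no overlapping exon. Over all introns these settings gave 4.33%, 5.75% and 10.6%. At 15% the list had 13.7%, against 19.6% of that table. The members' median log2 ratios were 0.0770 (all reads) and 0.0270 (spliced) without scaling, and −0.0207 and −0.0707 by the median ratio. Other introns with more than 50 reads were called higher in 92.9%. Over all tested introns outside the group 85.5% were called, and 76.7% of those with 50 reads or fewer in a library. Calls were thus more frequent in deeper introns in general, and the 92.9% is not read as particular to these genes. The other 103 values moved by less than the limit set for them. Among these was the branch site distance, whose median in the members went from 80 bases to 59 over all placed introns. Leaving out wtf genes, or trimming the splicing list, was added after seeing the data. Depth limits the choice itself, since in 80 members the upper bound of the share reached 10% or more.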
